A study of Macaca fascicularis with 28 samples.

Results

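SOX genes encode transcription factors that bind DNA through an HMG box and fall into lettered groups by the sequence of that box. Members of a group often act alike and their partners decide which genes they switch on. In the tongue, SOX2 is best known, since mouse taste buds need it to form and renew. The genes described here are SOX2, SOX4, SOX5, SOX6, SOX7, SOX9, SOX11, SOX13, SOX15 and SOX21, 10 genes chosen by name. Of these, 9 are among the 14873 genes named on the array here, with 24 of 52024 probe sets, and SOX15 was not analysed here. Probe sets took the symbol in the study's list of taste bud genes where it holds them, and otherwise that of the array annotation.

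RNA levels come from 28 Affymetrix Rhesus macaque arrays of laser-captured tongue cells of cynomolgus macaques (Macaca fascicularis) that had been scheduled for euthanasia for other reasons, with RNA amplified before labelling. Fungiform (FG) taste buds and the adjacent lingual epithelium (LE_FG) came from 6 animals aged 2.6 to 4.5 years, 2 male and 4 female. Animals 1, 3, 4 and 5 of these also gave circumvallate (CV) taste buds and adjacent epithelium (LE_CV). The upper (CV_top) and lower (CV_bottom) parts of CV taste buds came from 4 other animals aged 3 years, 1 male and 3 female, on a second set of arrays. The labels name no treatment or genotype. A captured taste bud area mixes several taste cell types and their precursors, and in such bulk samples more cells of a type and more RNA per cell cannot be told apart. Values are GC-RMA intensities on a linear scale, and 25 units marks the level under which a probe set was read as dim, so that a fold change against a group wholly under 25 units is given as "at least", against values raised to 25. Log2 changes are given ± standard error (SE) from limma, with p-values adjusted by Benjamini-Hochberg over all tested probe sets and a gene is called where that value does not exceed 0.05.

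Markers of type II taste cells and differentiated keratinocytes separated the tissues as labelled, whereas those of type I cells and basal keratinocytes did not follow the labels. The summed intensity of 9 type II taste cell genes was 11296 to 25606 in the taste bud samples and 204.8 to 355.4 in LE. The summed intensity of 9 differentiated keratinocyte genes was 63134 to 85386 in LE and 481.6 to 17489 in taste buds, the highest of these in FG. Of the 6 type I taste cell markers, KCNJ1 and SLC6A11 were under 25 units in every sample, and of the 4 tested 1 was higher and 1 lower in CV and 0 were higher and 3 lower in FG taste buds, with sums of 221.2 to 272.1 in FG and 758.3 to 1024 in LE_FG. Of 6 basal keratinocyte markers 5 were higher in CV and 5 higher and 1 lower in FG taste buds, with sums of 5918 to 7190 in FG and 354.4 to 4632 in LE_FG. Array medians lay between 13.57 and 16.75 units.

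Taste buds and epithelium differed in most of the SOX genes that could be tested. By the probe set that stands for each gene, 7 of the 9 genes were tested and SOX7 and SOX11 were too dim. In CV taste buds SOX2, SOX4, SOX5 and SOX21 were higher than in LE_CV and SOX9 was lower, that is 4 genes higher and 1 lower, against 17.3% of all tested probe sets called higher and 18% called lower. In FG taste buds the same genes and SOX13 were higher, 5 genes, and SOX9 was again lower, against 21.1% and 20.2%. The median log2 change of the 7 genes was 2.67 in CV and 1.60 in FG taste buds, where the median of all tested probe sets was -0.08 and 0.05. The probe sets that stand for SOX4, SOX5 and SOX21 come from the study's list of taste bud genes, which was selected on these same arrays for higher values in taste buds. Their direction, and the counts and medians that include them, are therefore not independent evidence. SOX5 and SOX21 were also tested only because taste bud samples reached 25 units, which no LE sample did. Both medians are the change of SOX6, which was called in neither papilla type.

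**Figure D1:**
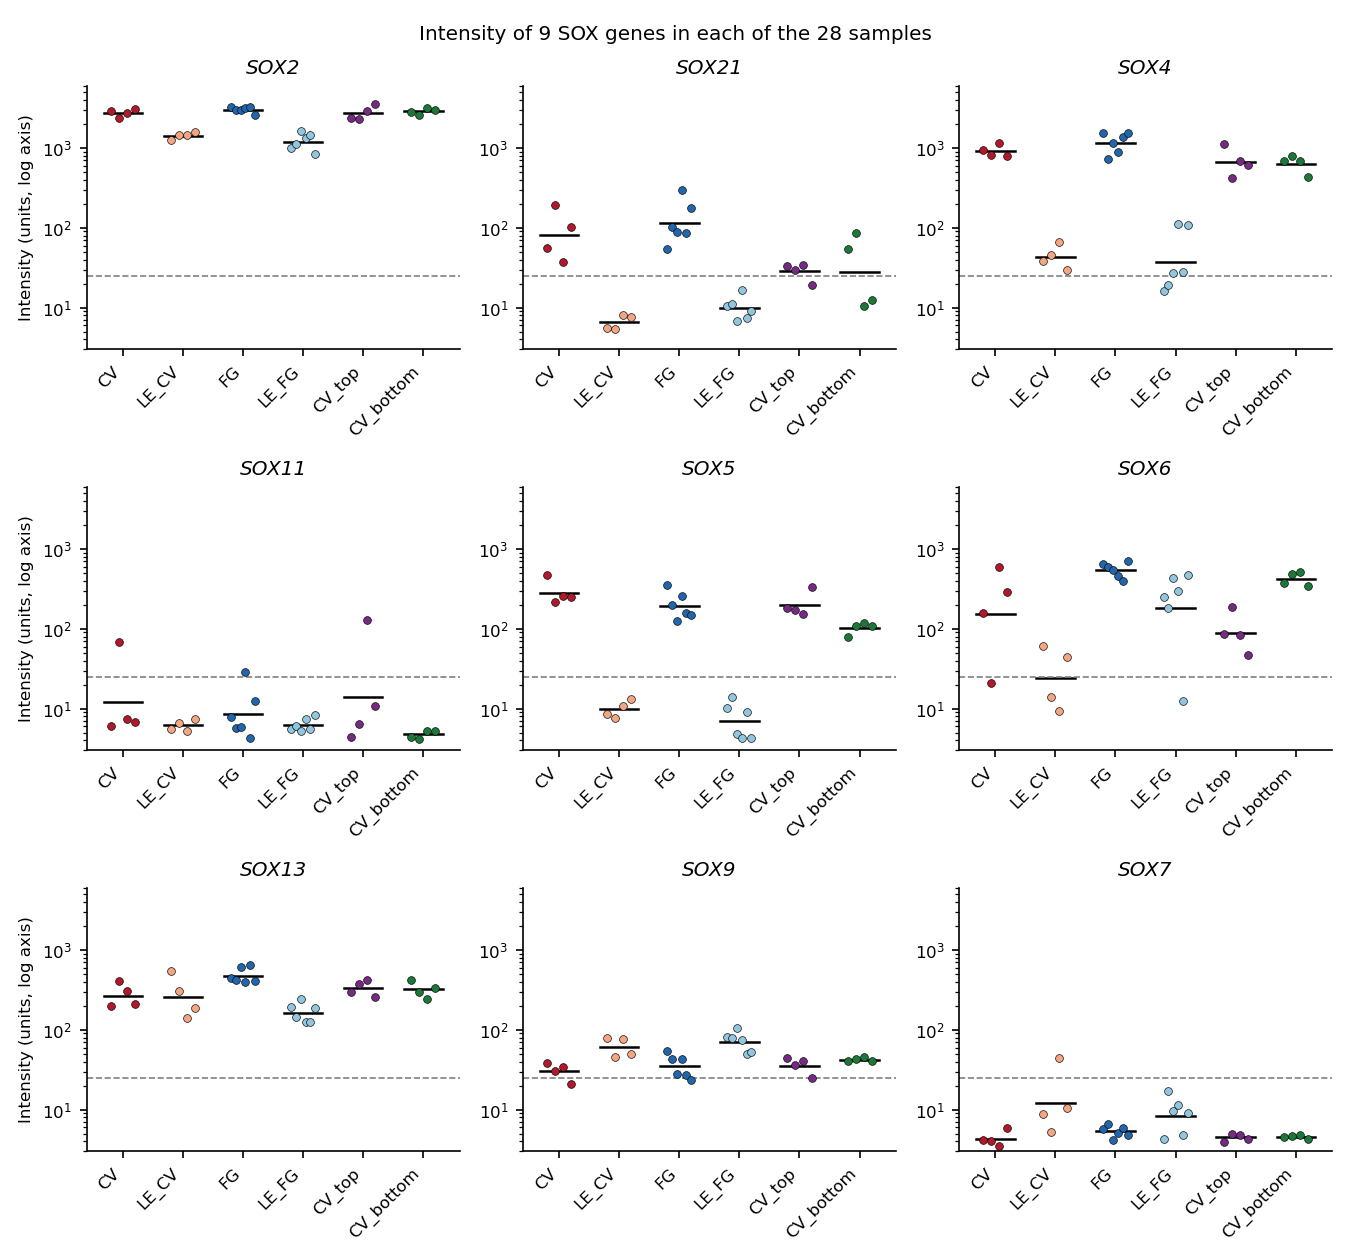
Intensity (log axis, units) of 9 SOX genes in each of the 28 samples, by the probe set that stands for each gene. Each point is 1 sample, horizontal lines are geometric means and the dashed line marks 25 units. SOX4 and SOX5 separate all taste bud groups from epithelium, SOX2 does so with a smaller step, SOX21 does so except for CV_bottom samples at 10.33 and 12.27 units, and SOX7 and SOX11 lie under the dashed line in nearly all samples.

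Of group B, SOX2, an activator that keeps progenitor cells of many epithelia and of the nervous system undifferentiated, had intensities of 2896, 2395, 2740 and 3110 in CV taste buds of animals 1, 3, 4 and 5. The LE_CV samples of these animals gave 1266, 1468, 1444 and 1586. FG taste buds ranged from 2612 to 3288 with a median of 3088, and LE_FG from 841.9 to 1629 with a median of 1221. Every taste bud sample lay above every LE sample, and the LE samples were themselves far above 25 units. The log2 change was 0.95 ± 0.23 in CV (1.93-fold, adjusted p = 0.0062, higher in 4 of 4 animals) and 1.34 ± 0.19 in FG (2.54-fold, adjusted p = 0.000102, higher in 6 of 6) by limma. SOX2 was thus well above background on both sides of the taste bud border, and its step was the smallest among the genes that were higher in CV. The other probe sets of SOX2 gave 13.7 to 253 units. One of them was higher in FG taste buds (log2 change 1.82 ± 0.42, limma adjusted p = 0.00418) but had -0.66 ± 0.52 in CV (adjusted p = 0.34), and the last was called in neither.

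SOX21, the group B repressor that counters SOX2-type activators, had intensities of 56.44, 192.1, 37.26 and 102.2 in CV taste buds and 5.516, 5.369, 8.18 and 7.612 in LE_CV of the same animals. FG taste buds ranged from 54.37 to 294.3 with a median of 95.39, and LE_FG from 6.842 to 16.7 with a median of 9.736. SOX21 passed 25 units in every whole taste bud and in no LE sample. Against LE its rise was at least 3.21-fold in CV (limma adjusted p = 0.000164) and at least 4.56-fold in FG (adjusted p = 3.04e-05). In the second array set it was near the limit, with 33.05, 29.95, 34.68 and 19.16 units in CV_top and 54.69, 85.37, 10.33 and 12.27 in CV_bottom. A second SOX21 probe set gave 10.8 to 37.1 units in all samples and was too dim to be tested. Its values ran the other way, lower in CV taste buds than in LE_CV in 4 of 4 animals and lower in FG than in LE_FG in 6 of 6, so the direction rests on 1 probe set.

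Of group C, SOX4, a factor of young neurons and of progenitors in many organs, showed the steepest step that was measured on both sides. It had 936.8, 816.3, 1171 and 800.3 units in CV taste buds and 38.38, 45.29, 66.07 and 29.64 in LE_CV of animals 1, 3, 4 and 5. FG taste buds ranged from 738.1 to 1564 with a median of 1258, and LE_FG from 16.32 to 112.7 with a median of 27.27. The lowest taste bud sample of the first array set was over 738 units and the highest LE sample under 113. The log2 change was 4.42 ± 0.45 in CV (21.4-fold, limma adjusted p = 6.82e-06) and 4.94 ± 0.37 in FG (adjusted p = 2.34e-07), with 27.4-fold for FG when values under 25 were raised. SOX4 has 3 further probe sets that are named by the annotation alone, and 2 of them moved the same way in both papilla types. Their log2 changes were 3.97 ± 0.35 and 3.54 ± 0.46 in CV and 3.66 ± 0.29 and 4.46 ± 0.38 in FG, with limma adjusted p of at most 5.72e-05. The last was under 25 units in most samples and had -1.45 ± 0.87 in CV (adjusted p = 0.212).

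SOX11, the other group C gene here and a partner of SOX4 in young neurons, was not detected as a group in any tissue. Its 3 probe sets lay under 25 units in all samples but 4. These were 68.34 units in the CV sample of animal 3, 28.4 in the FG sample of animal 4 and 130 in the CV_top sample of animal 9 by one probe set, and 91.38 in the CV sample of animal 4 by another. No sample was over 25 units by more than 1 of the probe sets.

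**Figure D2:**
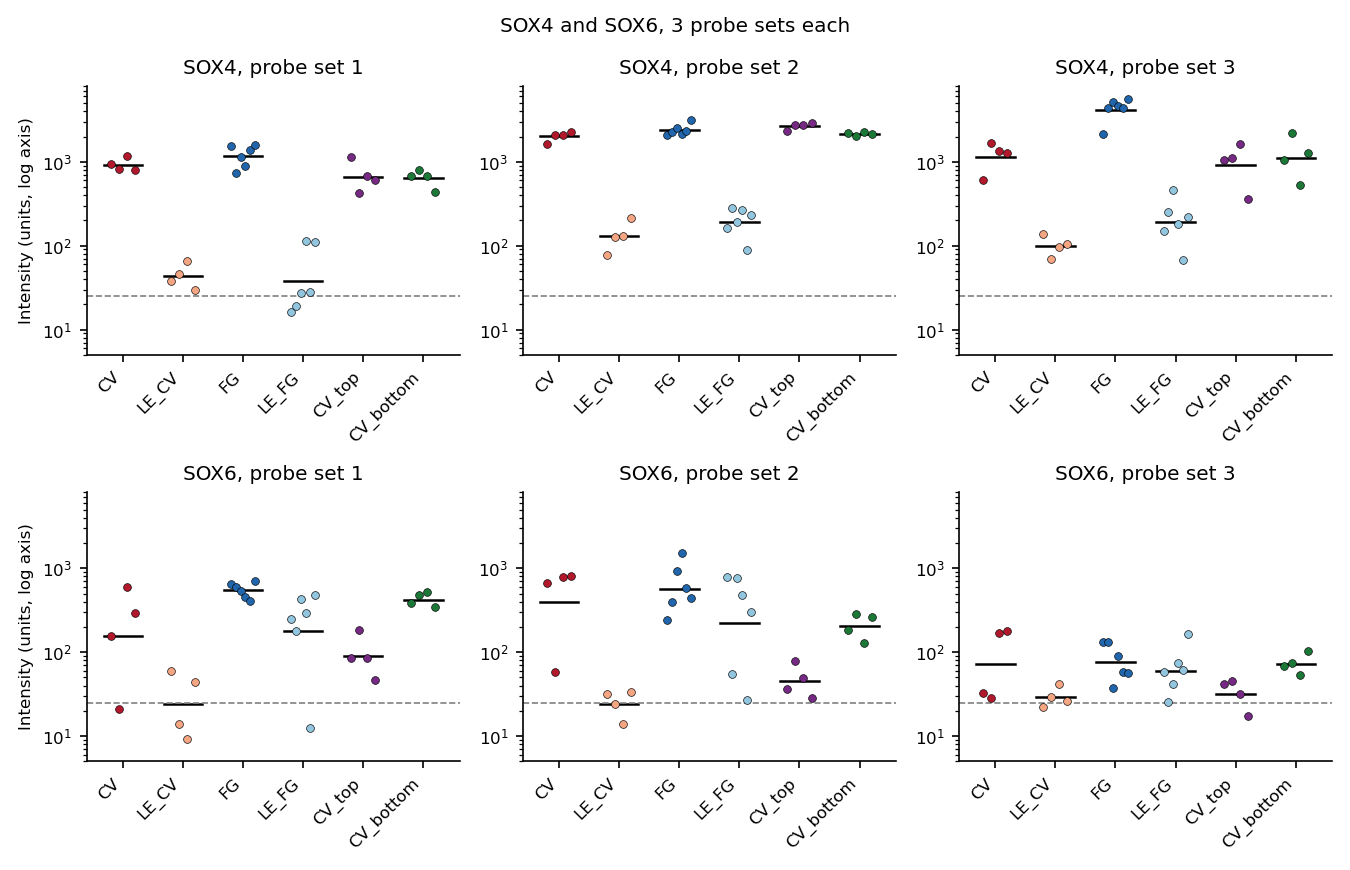
Intensity (log axis, units) of 3 probe sets each of SOX4 and SOX6 in the 28 samples, where probe set 1 stands for the gene in the text, lines are geometric means and the dashed line marks 25 units. The SOX4 probe sets agree on taste buds above epithelium, and probe set 3 of SOX4 is the one whose FG and CV taste buds do not overlap. The SOX6 probe sets agree on CV_bottom above CV_top.

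Of group D, whose proteins have no activation domain of their own and pair with each other through a coiled coil, SOX5 was dim in every LE sample. It had 477.9, 214.7, 255.5 and 249.7 units in CV taste buds against 8.642, 7.545, 10.8 and 13.33 in LE_CV. FG taste buds ranged from 124.8 to 349.3 with a median of 180.2, and LE_FG from 4.227 to 14.01 with a median of 6.958. The groups did not come near each other. The rise of SOX5 was at least 11.4-fold in CV (limma adjusted p = 2.77e-07, 4 of 4 animals) and at least 7.78-fold in FG (adjusted p = 2.55e-08, 6 of 6). The other SOX5 probe sets did not pass the filter in the first array set. One of them gave 13.25 to 22.85 units in whole CV taste buds but 71.72, 141.8, 76.73 and 85.04 in CV_top and 50.13, 111.3, 203 and 123.9 in CV_bottom. In FG taste buds it ranged from 9.835 to 357.7 with a median of 27.08, with 3 of 6 samples over 25 units. Whole CV taste buds and fractions differ in animals and array set, whose part was not tested.

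SOX6, which works with SOX5 in cartilage and in maturing neurons, had the largest SE of the 7 genes in CV and in FG. It had 156.9, 20.72, 590 and 293.4 units in CV taste buds and 60.36, 13.85, 9.285 and 44 in LE_CV of animals 1, 3, 4 and 5. FG taste buds were even, from 403.4 to 700.7 with a median of 566.9, whereas LE_FG spread from 12.57 to 474.4 with a median of 273.5. The groups overlapped in both papilla types. The log2 change was 2.67 ± 1.07 in CV (limma adjusted p = 0.0676, higher in 4 of 4 animals) and 1.60 ± 0.88 in FG (adjusted p = 0.157, higher in 6 of 6), so neither was called. A second probe set had 661, 58.69, 789.6 and 815.3 units in CV taste buds and 31.66, 23.77, 13.93 and 33.69 in LE_CV, which did not overlap, and was called higher in CV (4.03 ± 1.05, adjusted p = 0.00905) but not in FG (1.35 ± 0.86, adjusted p = 0.225). Without animal 3 the first probe set was called as well (3.37, adjusted p = 0.0347). Without animal 4, or with all LE samples as 1 group, the second was not (3.43, adjusted p = 0.0766, and 2.11, adjusted p = 0.166). The CV sample of animal 3, the lowest for SOX6, also had the lowest summed intensity of 7 fibroblast genes among CV samples, 607.9 against 3180 to 4442. It was also lowest in the sums of 6 basal keratinocyte genes, 3775 against 4655 to 5773, and of 7 proliferation genes, 924.4 against 1096 to 1272. Single genes of these sums did not all follow. TP63, TOP2A and MKI67 had 604.1, 56.55 and 21.1 units in this sample, and their lowest CV values were 204.6, 24.94 and 9.833. The LE_FG sample of animal 5, with 12.57 units, had the lowest basal keratinocyte sum in its group, 354.4 against 1969 to 4632. Its fibroblast sum of 880.2 and proliferation sum of 260.4 were not the lowest there, which were 558.7 and 138.5. The LE_CV sample of animal 3, with 13.85 units of SOX6, had the highest basal keratinocyte sum of its group, 2308. The part of these cells in the SOX6 values of these samples was not tested.

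SOX13, a group D gene also known from T cells, was present in all tissues. It had 200.3, 412.9, 302.8 and 208.3 units in CV taste buds and 543.4, 307.1, 139.7 and 188.7 in LE_CV, and these overlapped fully (log2 change 0.06 ± 0.36, limma adjusted p = 0.911). FG taste buds ranged from 392.7 to 644.3 with a median of 432.3, and LE_FG from 124.7 to 242.9 with a median of 164.4. These did not overlap, and SOX13 was higher on the taste bud side in 6 of 6 animals (1.54 ± 0.29, 2.92-fold, adjusted p = 0.00108). The difference between the effects in CV and FG, tested as the interaction, was -1.48 ± 0.46 with an adjusted p of 0.149, so it was not called. SOX13 has 1 probe set on the array.

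SOX9, the group E factor that drives cartilage formation and marks stem cells of hair follicles and glands, went the other way at low intensity. It had 38.49, 30.51, 33.86 and 20.92 units in CV taste buds and 79.24, 45.6, 76.37 and 49.74 in LE_CV. FG taste buds ranged from 23.19 to 54.78 with a median of 35.54, and LE_FG from 50.22 to 104.7 with a median of 76.54. The CV groups did not overlap and the FG groups overlapped at their edges. The log2 change was -1.01 ± 0.26 in CV (2.02-fold lower, limma adjusted p = 0.0084, lower in 4 of 4 animals) and -1.03 ± 0.21 in FG (2.04-fold lower, adjusted p = 0.00194, lower in 6 of 6). Without animal 4 or animal 5 the change in CV was -0.96 or -0.93 and was no longer called (adjusted p = 0.0605 and 0.06). All 9 differentiated keratinocyte markers tested were lower in taste buds as well. In CV, 0 of 4 leukocyte markers tested were higher and 2 lower. Of 5 Schwann cell and nerve markers 1 was higher and 3 lower, and of 6 gland markers 1 higher and 1 lower. In FG these counts were 0 and 1, 1 and 2, and 0 and 2. The shares of all tested probe sets were 17.3% higher and 18% lower in CV and 21.1% and 20.2% in FG. The part of these cells in the SOX9 values was not tested. SOX7, a group F gene of blood vessels, was under 25 units in all samples but 1, the LE_CV sample of animal 4 with 44.64 units.

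**Figure D3:**
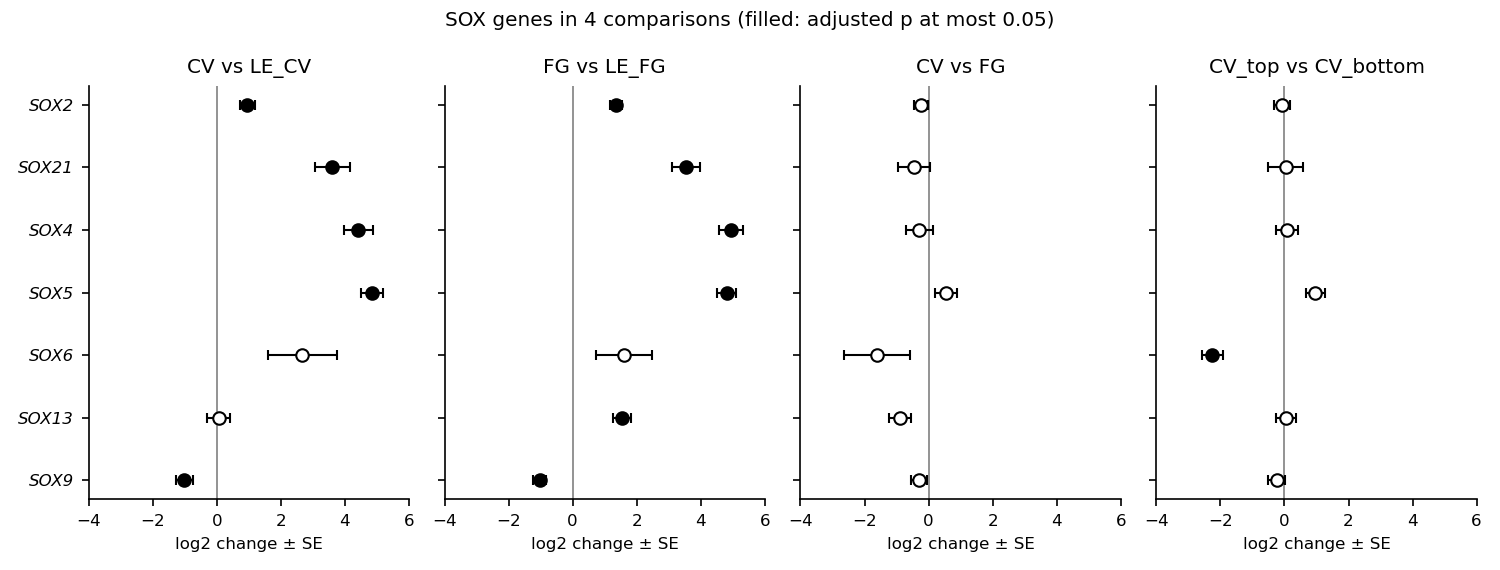
Log2 change ± SE of the 7 tested SOX genes in 4 comparisons, with filled points for genes that passed in limma (adjusted p up to 0.05). The changes against epithelium reach 4.85 for SOX5 in CV and 4.94 for SOX4 in FG, no gene is called between CV and FG, and SOX6 alone is called between CV_top and CV_bottom.

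Between papilla types no SOX gene was called by limma. In CV against FG taste buds 0 of 7 genes passed in either direction, against 0.378% and 0.493% of all tested probe sets, and 0 higher and 1 lower passed at an unadjusted p of 0.05. That gene was SOX13, with a log2 change of -0.89 ± 0.34 (unadjusted p = 0.0221, adjusted p = 0.316, lower in 4 of 4 animals). The changes of the other 6 lay between -1.60 ± 1.03 for SOX6 and 0.54 ± 0.34 for SOX5. The third SOX4 probe set of the plot of probe sets had 609.9, 1682, 1354 and 1258 units in CV and 2140 to 5547 in FG taste buds, which did not overlap (-1.73 ± 0.44, adjusted p = 0.0976), whereas the other well measured SOX4 probe sets had -0.29 ± 0.43 and -0.11 ± 0.34. Between LE_CV and LE_FG 0 of 7 genes passed, against 0.97% of probe sets higher and 0.294% lower. SOX5 and SOX21 were under 25 units in every sample of both groups, so this comparison could not show a difference in them. SOX6 had the largest difference there, -2.67 ± 1.03 by one probe set (adjusted p = 0.206) and -3.51 ± 1.01 by the other (adjusted p = 0.101), with LE_CV lower in 3 of 4 animals. For the interaction, 0 of 7 genes passed, against 0.871%, and SOX13 alone had an unadjusted p under 0.05 (0.00652).

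Within the CV taste bud SOX6 alone of the SOX genes was called between the fractions. SOX6 had 86.2, 185.4, 84.39 and 46.75 units in CV_top of animals 7, 8, 9 and 10 and 380.3, 479.9, 515.8 and 341.8 in CV_bottom. Every bottom sample lay above every top sample. The log2 change of top against bottom was -2.25 ± 0.32 (4.75-fold lower, limma adjusted p = 0.0315, lower in 4 of 4 animals). A second probe set had 36.78, 79.49, 48.58 and 28.33 units in CV_top and 185.7, 281.9, 128.9 and 259.4 in CV_bottom (-2.19 ± 0.35, 4.57-fold lower, adjusted p = 0.0372), and 2 further probe sets were lower in 4 of 4 animals without being called (-1.20 ± 0.40 and -0.93 ± 0.31). SOX6 was the 1 gene of 7 called lower at the top, against 1.46% of tested probe sets, and 0 were called higher, against 1.68%. With any 1 of the 4 animals left out the change stayed between -2.54 and -2.04 but was not called (adjusted p between 0.0812 and 0.135), and without the filter on dim probe sets it was not called either (adjusted p = 0.0673).

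Markers of other cells moved with the same fractions. Of the 6 fibroblast markers tested, 5 were lower at the top, and the summed intensity of the 7 on the array was 545.8 to 654.8 in CV_top and 3715 to 7600 in CV_bottom. Of 6 proliferation markers 2 were lower at the top, TOP2A and MKI67, with sums of 999 to 1425 and 2555 to 3807 over 7 genes. Of 6 basal keratinocyte markers TP63 was lower at the top, with a log2 change of -3.16 ± 0.49 (limma adjusted p = 0.0348), with sums of 4629 to 5904 and 6984 to 9360. The part of these cells in the SOX6 difference was not tested. SOX5, the partner of SOX6, ran the other way without being called. It had 181.2, 173.4, 154 and 332.7 units in CV_top and 79.82, 109.8, 117.6 and 108.9 in CV_bottom, which did not overlap, with a log2 change of 0.96 ± 0.30 (adjusted p = 0.145, higher in 4 of 4 animals). SOX2 (-0.08 ± 0.25), SOX4 (0.07 ± 0.34), SOX13 (0.06 ± 0.31), SOX21 (0.04 ± 0.55) and SOX9 (-0.24 ± 0.26) were not called, with adjusted p of at least 0.663.

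**Figure D4:**
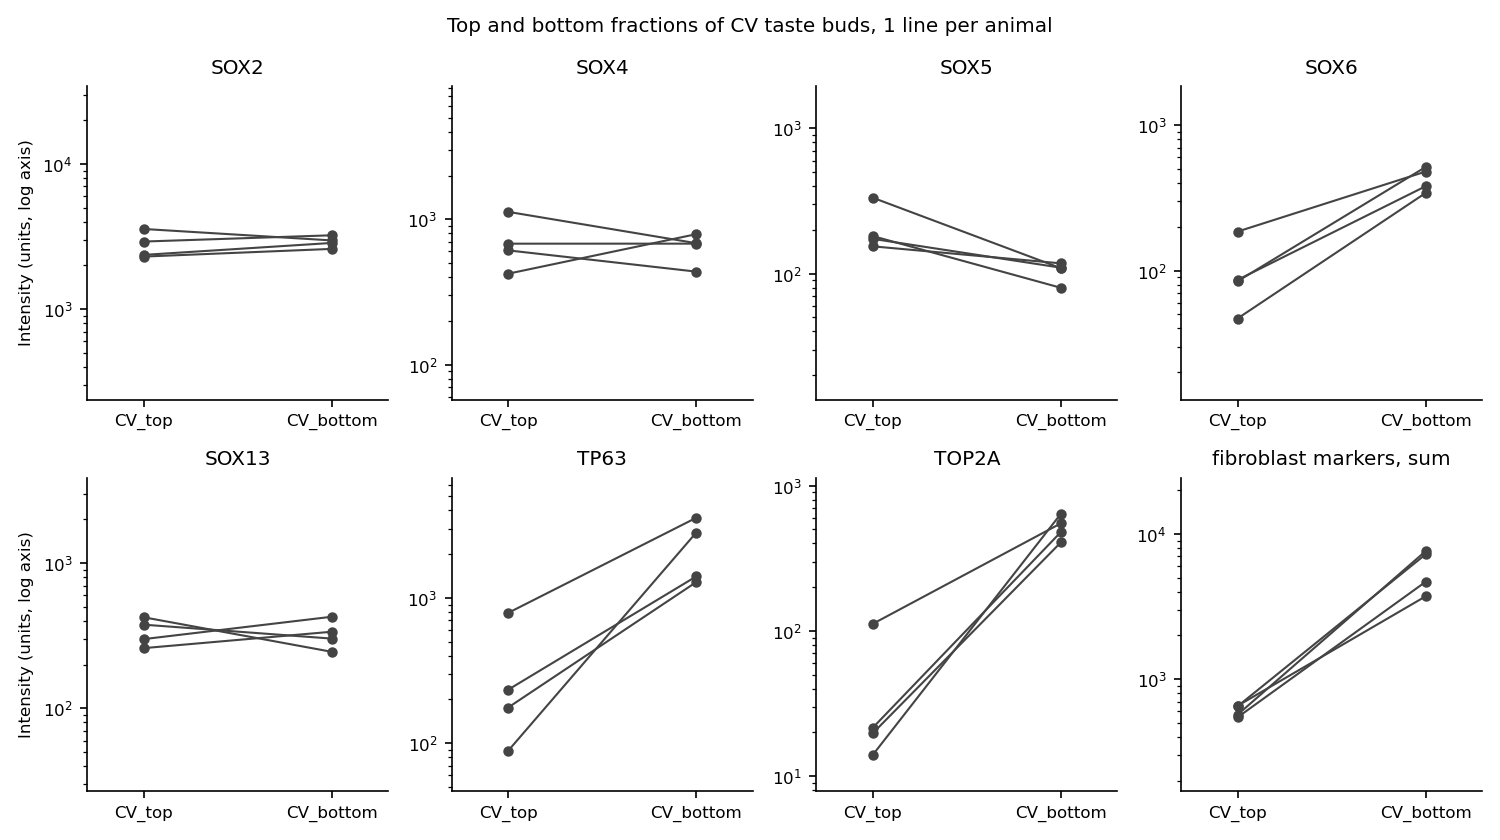
Intensity (log axis, units) in CV_top and CV_bottom of 4 animals, 1 line per animal, for 5 SOX genes, TP63, TOP2A and the summed intensity of 7 fibroblast genes. All axes span the same number of folds. SOX6 is higher at the bottom in each of the 4 animals as TP63, TOP2A and the fibroblast sum are, SOX5 is lower there in each, and the lines of SOX2, SOX4 and SOX13 stay nearly level or cross.

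Against LE_CV the fractions repeated the order of the whole taste buds in part. These arrays differ in animals and in array set, so tissue and array set cannot be told apart. CV_top had 4 genes higher (SOX2, SOX4, SOX5 and SOX21) and 1 lower (SOX9), against 25.1% and 19.3%, with a median log2 change of 1.86 where all tested probe sets had 0.14. CV_bottom had the same 4 and SOX6 higher, 5 genes, and 0 lower, against 23.1% and 19%, with a median of 2.08 against 0.06. The limits given for whole taste buds, from the selected list and the dim LE samples, hold for these counts and medians too. SOX2 was 1.92-fold higher at the top and 2.03-fold at the bottom, SOX4 15.5-fold and 14.7-fold, and SOX5 at least 8.01-fold and at least 4.12-fold (limma adjusted p of at most 0.00109). For SOX21 the bounds were 1.14-fold and 1.11-fold, and with values raised to 25 it was called in neither (adjusted p = 0.685 and 0.224). SOX9 at the top had -0.77 ± 0.30 (adjusted p = 0.0376), which was lost without animal 1, 4, 8, 9 or 10 (adjusted p up to 0.143). SOX6 was called at the bottom (4.11 ± 0.91, adjusted p = 0.000772) and not at the top (1.86 ± 0.91, adjusted p = 0.0958). With all LE samples as 1 group, the second SOX6 probe set lost its call at the bottom (1.15, adjusted p = 0.319), whereas SOX13 at the top (0.76, adjusted p = 0.0408) and SOX9 at the bottom (-0.67, adjusted p = 0.0314) gained one.

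The order of the 6 groups by median was FG, CV_bottom, CV, CV_top, LE_CV and LE_FG for SOX2. Neighbours overlapped in their ranges except CV_top and LE_CV. For SOX4 and SOX21 the order began with FG and CV and for SOX5 with CV and FG, and in all 3 the step between the lowest taste bud group and the highest LE group was free of overlap. For SOX21 the third taste bud group in order, CV_bottom, reached down into the range of LE_FG. SOX6 ran FG, CV_bottom, LE_FG, CV, CV_top and LE_CV, with every neighbour overlapping.

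Other SOX genes on the array were examined by the same rules. Of 9 listed, 7 have a named probe set and 3 were tested, of which 1 was higher and 1 lower in CV as in FG taste buds, against 17.3% and 18% of all tested probe sets in CV and 21.1% and 20.2% in FG. SOX1, a close relative of SOX2, had 77.67, 196.6, 95.71 and 101.8 units in CV taste buds and at most 5.77 in LE_CV, at least 4.42-fold higher (limma adjusted p = 1.59e-05). In FG taste buds it ranged from 6.782 to 57.88 with a median of 29.32 and was called higher (adjusted p = 0.00161), which no longer held once values under 25 were set to 25 (adjusted p = 0.258). Its CV samples all lay above its FG samples without being called (2.24 ± 0.50, adjusted p = 0.0571). SOX30, best known from testis, was lower in taste buds, with 41.48 to 157.8 units in CV and 957.8 to 1342 in LE_CV (11.5-fold, adjusted p = 8.65e-05) and a smaller change in FG (-1.21 ± 0.40, adjusted p = 0.0251), while its second probe set was not called in CV (-1.72 ± 0.86, adjusted p = 0.134). SOX12, the remaining group C gene, was not called (0.41 ± 0.37 in CV and 0.31 ± 0.30 in FG). SOX10, a marker of Schwann cells and melanocytes, was under 25 units in every sample.

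Known targets and partners of these factors were counted by list, beside 17.3% of all tested probe sets called higher and 18% called lower in CV and 21.1% and 20.2% in FG, with medians of -0.08 and 0.05. Among 13 genes that SOX9, SOX5 and SOX6 switch on in cartilage, 6 were tested, and 1 was higher and 1 lower in CV as in FG taste buds (medians 0.33 and -0.12). The higher one was COL9A2, a chain of collagen IX, with 2694 to 4406 units in CV and 15.61 to 20.67 in LE_CV, at least 130-fold, and 1182 to 2624 in FG taste buds. The lower one was ACAN, the core protein of aggrecan, at -1.09 ± 0.31 in CV (limma adjusted p = 0.015). COL2A1 and COL9A1 were under 25 units in every sample. Among 8 genes of young neurons that include targets of SOX4 and SOX11, 5 were tested, and 3 were higher in CV and 4 in FG taste buds with none lower (medians 2.57 and 2.77). In CV taste buds the rise of TEAD2, a direct target of both factors, was at least 10.5-fold and that of STMN1, a microtubule regulator, 5.92-fold. TUBB3, the neuronal tubulin, was not called. DCX was under 25 units in CV taste buds but was called higher in FG, at least 1.27-fold (1.81 ± 0.50, limma adjusted p = 0.0113, 5 of 6 animals). DCX and ELAVL4, another gene of this list, were tested only because taste bud samples reached 25 units, which no LE sample did. The direction of these genes, and the counts and medians that include them, are therefore not independent evidence.

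For the next 2 lists the shares of all tested probe sets were again 17.3% higher and 18% lower in CV. In FG they were 21.1% and 20.2%, and the medians were -0.08 in CV and 0.05 in FG. Of 12 genes listed as partners of SOX2, 8 were tested. In CV taste buds 2 were higher and 2 lower, and in FG 4 higher and 3 lower (medians -0.37 and 0.32). The largest rises were in PROX1, a homeobox factor of taste cell precursors, at least 22.6-fold in CV and at least 68.6-fold in FG, and in POU2F3, which specifies type II taste cells (log2 change 5.12 ± 0.50 and 5.75 ± 0.41). KLF4, a regulator of epithelial differentiation, was lower in both (-1.13 ± 0.28 and -0.90 ± 0.23), and TP63, a factor of basal keratinocytes, was lower in FG (-2.71 ± 0.67), where the other 5 basal keratinocyte markers tested were higher. The called changes of these 4 genes had a limma adjusted p of at most 0.0069. Of 11 beta-catenin partners and Wnt response genes, on which SOX proteins act, 10 were tested, 6 higher in CV and 7 in FG with none lower (medians 3.97 and 2.47), with the largest log2 changes in LEF1 for CV (7.19 ± 0.46) and AXIN2 for FG (6.74 ± 0.39). LGR5 of this list was called higher in CV than in FG taste buds (4.69 ± 0.78, limma adjusted p = 0.011) and in the interaction (4.99 ± 1.06, adjusted p = 0.0417). Its median in FG taste buds was 6.295 units. POU2F1 of the SOX2 partners was called in the interaction (-2.34 ± 0.49, limma adjusted p = 0.0397). SOX1, PROX1, POU2F3, TEAD2, STMN1, COL9A2, LEF1 and AXIN2 are themselves on the study's list selected on these arrays. SOX1, PROX1 and LGR5 were under 25 units in every LE sample and were tested only because taste bud samples reached that level. LEF1, LGR6, NKD1 and ZNRF3 were under 25 units in every LE_CV sample. Counts and medians that include these genes are therefore not independent evidence.

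**Figure D5:**
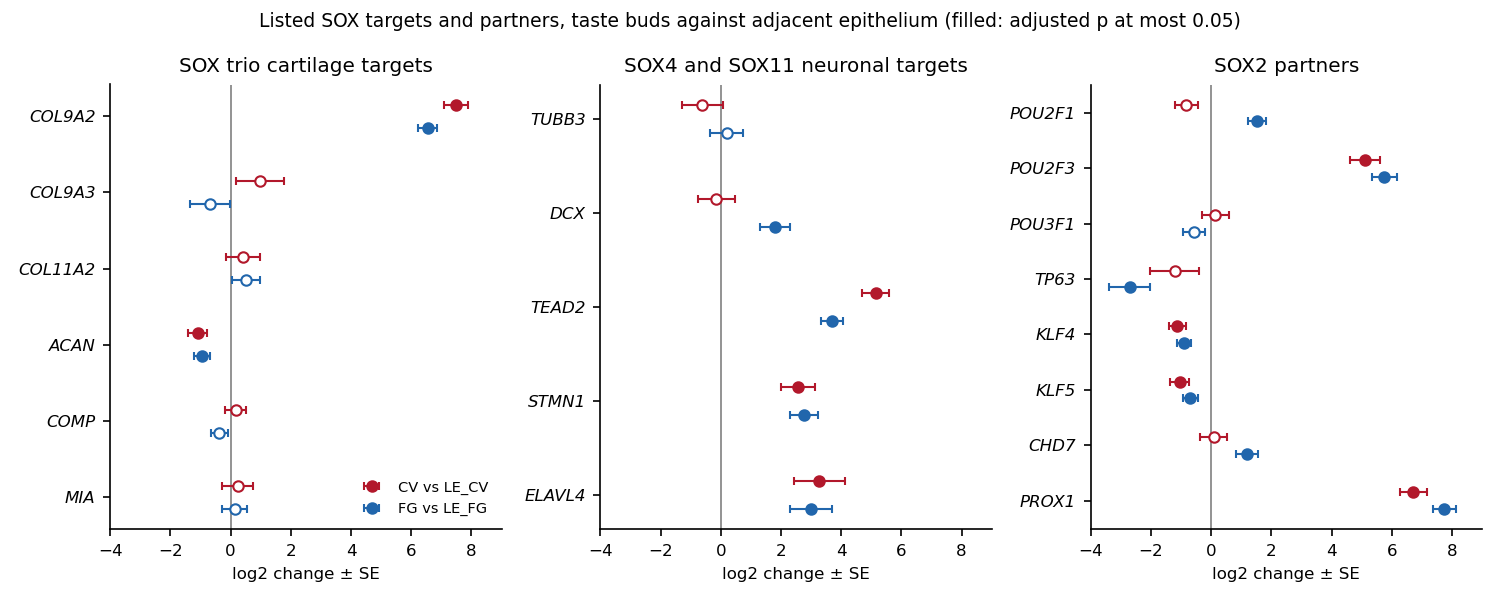
Log2 change ± SE of the tested genes of 3 lists, taste buds against adjacent epithelium, for CV (red) and FG (blue), with filled points for genes that passed in limma (adjusted p up to 0.05). COL9A2 at 7.49 and 6.55 stands alone among the cartilage genes, while TEAD2, STMN1 and ELAVL4 rise in both papilla types among the neuronal genes.

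The genes most like each SOX gene were found by Pearson correlation of log2 intensity over all 28 samples among 11472 genes, taste bud and LE samples together. The values are a description, since samples share animals and tissue. SOX2 followed SMS, SEMA3G and SCN3A (r = 0.95, 0.94 and 0.94), SOX4 followed SCG5, PLCD4 and PITPNC1 (0.98, 0.97 and 0.96), and SOX5 followed FAM26A, TOX3 and TAS2R55 (0.98, 0.97 and 0.97). For SOX21 the genes were BRSK1, PRRT1 and DUSP4 (0.89, 0.88 and 0.88) and for SOX9 TMEM52, ZP3 and EXOG (0.87, 0.86 and 0.86). SOX6 had no gene over 0.77, which was MCM2, a subunit of the replicative helicase, ahead of SERTAD4 and RWDD3 (both 0.76). SOX13 had CDC25A, a phosphatase of cell cycle entry, at 0.79 and FLJ22536 and IRS1 at 0.78.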

How the data were processed

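The deposited table holds 1 intensity per probe set and sample, on a linear scale. The authors obtained it with GC-RMA (background correction, then quantile normalization of the 28 samples together) in GeneSpring, whose version is not given in the sources used here. Samples were grouped by tissue, papilla type and animal from their labels, and the animal is the replicate. Intensities were log2 transformed and fitted with limma 3.58.1 in R 4.3.3 after leaving out probe sets that reached 25 units in fewer than 4 of the samples fitted. The 20 arrays of set 1 (26176 probe sets) and the 8 of set 2 (21167) were fitted with the animal as a fixed block, and all 28 (27751) with the animal as a random block for fractions against LE_CV. A gene with several probe sets is represented by that of the study's list of taste bud genes, else by its brightest on average over log2 values. Columns of fold changes and p-values in the study's list were not used.

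The SOX genes, the other gene lists and the tests were chosen with earlier results of these data known. Named genes are all SOX members, up to 4 genes with the largest called changes per other list and comparison, marker genes of the fractions, and 3 genes most like each member. Pairing comes from animals in the labels; same-animal samples correlated at 0.05 to 0.12 in their deviations from group means, other pairs at -0.04 to -0.01. The fits were tested on simulated data. The alternatives left out the replicate block, raised values to 25, dropped the filter, centred arrays on medians, left out each animal, pooled LE or used the methods' t-test. For that t-test p-values were adjusted too, which the study's methods do not state. Arrays give no read depth, and the number of animals limits the precision.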

Additional observations from a re-analysis of the deposited data

Results flagged for a closer look

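In 96 groups of samples over 16 SOX probe sets, 6 had a sample that stood apart by Dixon's test, and chance sets apart about 1 in 20 groups. For SOX6 the LE_FG sample of animal 5 had 12.57 units where the others had 180.6 to 474.4, and by the second probe set the CV sample of animal 3 had 58.69 units against 661 to 815.3. A dimmer SOX6 probe set had 244.6 units in the FG sample of animal 6 against 10.5 to 29.92. For SOX4 one probe set had 2140 units in the FG sample of animal 1 against 4349 to 5547, and the dimmest had 114.6 in the LE_FG sample of animal 1 against 5.024 to 11.18. A dim SOX2 probe set had 16.21 units in the LE_CV sample of animal 4 against 26.46 to 28.85.

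In 4 of 4 animals SOX13 had less signal in CV than in FG taste buds, and in 4 of 4 more in LE_CV than in LE_FG. The difference of these differences was -1.48 on the log2 scale, with a limma adjusted p of 0.149.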

How the results depend on the processing

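Of 25 called SOX changes refitted 293 times, 266 refits kept the call, 27 lost it and 0 turned the direction. These include changes of the second SOX6 probe set, counted apart from those of the first. In every refit 16 changes kept their call. Counts of SOX genes called lower moved most. In CV against LE_CV the count of 1 became 2 without the filter, 0 by the methods' t-test with adjusted p and 0 to 1 with 1 animal left out. In CV_top against CV_bottom the count of 1 became 0 without the filter, by the t-test with adjusted p and with any animal left out. In CV_top against LE_CV it became 2 without the filter and 0 to 1 with 1 animal left out, and in CV_bottom against LE_CV the 0 became 1 without the filter or with LE as 1 group. Without the replicate block 5 SOX genes instead of 4 were higher in CV, the added gene being SOX6 (2.67, limma adjusted p = 0.0462). No other count of SOX genes changed in that fit. Counts of higher genes also moved elsewhere. In CV 3 were higher by the t-test with adjusted p and 5 without animal 3, and in FG 6 with LE as 1 group. In CV_top against LE_CV 5 were higher with LE as 1 group or without animal 5, and 3 with values raised to 25. In CV_bottom 4 were higher with values raised. At an unadjusted p of 0.05, the limit in the study's methods, the t-test gave 4 genes higher and 1 lower in CV against LE_CV. For CV_top against CV_bottom it gave 1 higher and 1 lower.

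Changes that turned direction had not been called. With values raised to 25, LE_CV against LE_FG gave 0.06 for SOX21 and -0.04 for SOX5. Every LE value of these genes is 25 units in that refit, so these values arise from the animal block and show no difference in LE. With the same setting SOX21 had -0.51 in the interaction and -0.44 in top against bottom. Centring gave interactions of -0.02 for SOX21, -0.05 for SOX5 and -0.08 for SOX9, and LE as 1 group gave -1.04 for the second SOX6 probe set at the top. With 1 animal left out, CV against LE_CV ranged from -0.29 to 0.56 for SOX13, and CV against FG from -0.98 to 0.35 for SOX21 and -1.48 to 0.29 for the second SOX6 probe set. The interaction ranged from -0.41 to 0.67 for SOX21, -0.21 to 0.36 for SOX5, -0.23 to 1.73 for SOX6 and -0.30 to 0.13 for SOX9. Top against bottom ranged from -0.19 to 0.24 for SOX13 and -0.14 to 0.40 for SOX4. For SOX21 it was -0.53 without animal 9 and -0.16 without animal 10, and without animal 7 or 8 too few samples reached 25 units for a fit. The causes of the other reversals were not tested. Centring moved the median of all tested probe sets by up to 0.16 (FG against LE_FG). Signal near 25 units limits SOX9, SOX21, SOX7 and SOX11.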
